A study of Ursus arctos with 12 samples.

Results

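The 10 genes described here code for the collagens, nidogens and perlecan of the basement membrane, and they were chosen by gene symbol from the 30249 genes of the count table. The members were the type IV collagen chains COL4A1, COL4A2, COL4A3, COL4A4 and COL4A5, the collagens COL15A1 and COL18A1, perlecan (HSPG2) and the nidogens NID1 and NID2. All 10 were found, and 10 of 10 passed the filter of 30 reads summed over the libraries, with at least 10 reads for each member in every library. The 12 libraries came from the vastus lateralis, a thigh muscle, of 6 free-ranging brown bears (Ursus arctos) of 2 to 3 years. Each bear gave a biopsy during hibernation (winter) and another when active again (summer). Winter captures preceded summer captures of the same year, so that season cannot be told apart from the months of growth between them. Levels are given as log2 CPM, that is the log2 of reads relative to the TMM-scaled library total, with a prior count of 2 added. They were not divided by transcript length, so they compare libraries and not genes.

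The basement membrane is a thin sheet of matrix that wraps each muscle fibre and underlies the endothelium of each capillary. Its scaffold is a network of laminins beneath the cell and a network of type IV collagen beside it, with nidogens and the heparan sulfate proteoglycan perlecan linking the networks. The chains coded by COL4A1 and COL4A2 assemble with each other and occur in nearly all basement membranes. Those coded by COL4A3, COL4A4 and COL4A5 form another network, best known from the kidney glomerulus. COL15A1 and COL18A1 carry glycosaminoglycan chains and lie at the border between basement membrane and interstitium. Muscle fibres, endothelial cells, pericytes and fibroblasts all add to this matrix, and in a biopsy fewer cells of a type and less RNA per cell cannot be told apart.

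Libraries held 16742406 to 32140160 reads on genes. Muscle fibre markers summed to 128471 to 207289 CPM in summer and 129482 to 168919 in winter, and their ranges overlapped between seasons. The winter library of bear 1509 lay apart from the other winter libraries, at 98.6 on the second principal component against −23.1 to −6.35. For the members, results that rest on it are given without it or without this bear as well. Counts of the other lists that moved without it are given at the end. Winter was compared with summer over all 17290 genes that passed the filter, by edgeR's quasi-likelihood test with season as its only term and Benjamini-Hochberg adjustment over these genes. A gene was called at an adjusted p below 0.05. Each member was also tested within bears by an exact two-sided sign-flip permutation test of the winter minus summer difference, for which 6 bears cannot give a p below 0.0312.

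All 10 basement membrane genes were called lower in winter (10 of 10), whereas 19.9% of all genes tested were. None was higher (0 of 10) in edgeR, in DESeq2 (0), in limma voom (0) or at an unadjusted p below 0.05 (0), and 19.6% of all genes were called higher. Their median log2 fold change was −2.03 and that of all tested genes −0.0021. Single bears had medians over the members from −2.13 to −1.57. Stricter limits, a fold change (winter over summer) of less than 0.77 together with an adjusted p of less than 0.01, were passed by 8 of 10, against 12% of all genes. For 8 of the 10 members, each of the 6 winter libraries lay below each of the 6 summer libraries, as was the case for 8.21% of all genes (the reverse was seen for 0 members and 9.12% of all genes). A decrease in all 6 bears was seen for 9 members and for 19.0% of all genes, and an increase in all 6 for 0 members and 18.4%. Together the members took 0.114 to 0.246% of the reads on genes in summer and 0.0210 to 0.0503% in winter. The seasons did not overlap in this share.

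**Figure D1:**
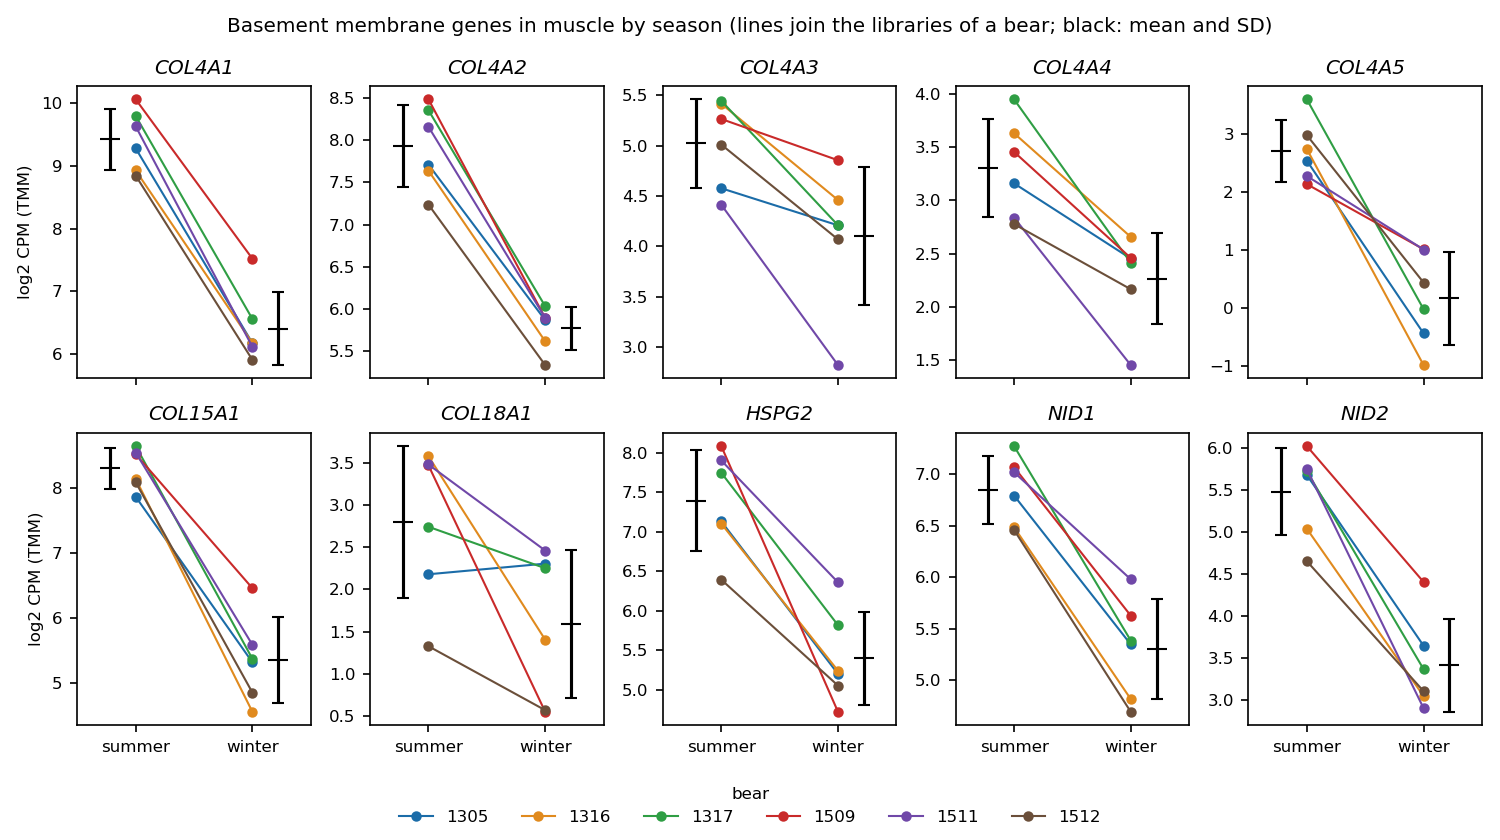
Level of each of the 10 basement membrane genes as TMM-scaled log2 CPM (y axis, its own range in each panel) in summer and winter. Lines join the libraries of a bear, and black bars give the mean and SD of 6 bears. All lines fall except that of COL18A1 in bear 1305, and the seasons overlap for COL4A3 and COL18A1.

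The chains of the widespread type IV collagen network were both lower in winter. COL4A1 stood at 8.84, 9.45 and 10.06 log2 CPM in summer (lowest, median and highest of 6 bears) and at 5.91, 6.17 and 7.52 in winter, and its reads ran from 10185 to 24276 per library in summer and from 1150 to 3320 in winter. No winter library came near a summer library, the gap between the seasons being 1.32 on the log2 scale. Its level went from 9.42 ± 0.49 to 6.41 ± 0.58 log2 CPM (SD over 6 bears), a log2 fold change of −2.97 ± 0.30 (SE) with adjusted p = 1.49e-05, which is 7.83-fold lower in winter. COL4A2 was at 7.24, 7.93 and 8.48 in summer against 5.34, 5.88 and 6.03 in winter. This gene too had no overlap between seasons, and its winter libraries lay close together with an SD of 0.25 against 0.48 in summer. Its log2 fold change was −2.20 ± 0.20 (SE) with adjusted p = 7.52e-06. Both chains decreased in 6 of 6 bears, with changes of −3.51 to −2.54 for COL4A1 and −2.59 to −1.84 for COL4A2 (exact permutation p = 0.0312 for each, the smallest that 6 bears allow). Bear 1509 had the highest level of COL4A1 in either season, and bear 1512 the lowest level of both chains in either season.

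Of COL4A3, COL4A4 and COL4A5, it was COL4A5 that changed most. It was counted at 98 to 276 reads per library in summer and at 10 to 39 in winter, which as log2 CPM was 2.13, 2.64 and 3.59 in summer against −0.98, 0.21 and 1.01 in winter. The seasons did not overlap, but the size of the fall varied between bears, from −3.72 to −1.12. It was smallest in bears 1509 (−1.12) and 1511 (−1.26), and the other 4 bears lay between −3.72 and −2.54. The log2 fold change was −2.55 ± 0.37 (SE) with adjusted p = 0.000146. COL4A4 was at 2.78, 3.31 and 3.95 in summer against 1.45, 2.43 and 2.66 in winter, again without overlap, though the seasons were only 0.12 apart. Its log2 fold change was −1.06 ± 0.23 (SE) with adjusted p = 0.00283, with single bears at −1.54 to −0.61. COL4A3 was at 4.41, 5.14 and 5.45 in summer against 2.82, 4.21 and 4.86 in winter, and here the seasons overlapped. Its winter library of bear 1511 held 116 reads, where the other winter libraries held 327 to 523, and it was lower in winter in 6 of 6 bears (−1.59 to −0.37). The log2 fold change was −0.86 ± 0.27 (SE) with adjusted p = 0.0219. COL4A3 lost its call when bear 1316, 1317 or 1512 was left out (adjusted p = 0.056, 0.0777 and 0.0619 in edgeR, within 2.46e-06 to 0.0777 over all alternatives). For each of these 3 chains the exact permutation p within bears was 0.0312.

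The glycosaminoglycan-bearing collagens were both called lower. COL15A1, which in muscle surrounds capillaries and fibres, had a log2 CPM of 7.86, 8.33 and 8.64 in summer against 4.55, 5.34 and 6.45 in winter, with 5909 to 9359 reads per summer library and 556 to 1588 per winter library. The seasons were 1.41 apart, the widest gap among the 10 members. It went from 8.30 ± 0.31 to 5.35 ± 0.66 log2 CPM (SD over 6 bears), a log2 fold change of −2.85 ± 0.28 (SE) with adjusted p = 1.28e-05, which is 7.19-fold lower, and single bears lay at −3.59 to −2.07 (exact permutation p = 0.0312). Bear 1509 had the smallest fall and the highest winter level. COL18A1, the precursor of the angiogenesis inhibitor endostatin, was counted at 25 to 277 reads only and stood at 1.33, 3.10 and 3.57 in summer against 0.55, 1.83 and 2.46 in winter. Its seasons overlapped widely, since the summer library of bear 1512 was at 1.33 and winter libraries reached 2.46. It was lower in 5 of 6 bears, from −2.92 in bear 1509 to 0.13 in bear 1305 (exact permutation p = 0.0625). The log2 fold change was −1.23 ± 0.43 (SE) with adjusted p = 0.0342. With bear 1316, 1509 or 1511 left out, the adjusted p in edgeR was 0.126, 0.11 and 0.0503, and it was 0.0548 without the winter library of bear 1509 alone, within 0.00145 to 0.126 over all alternatives.

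The linkers of the networks were lower as well. Perlecan (HSPG2) had a log2 CPM of 6.40, 7.44 and 8.09 in summer against 4.72, 5.22 and 6.36 in winter, so that its highest winter library and its lowest summer library were only 0.035 apart. It went from 7.40 ± 0.64 to 5.40 ± 0.59 log2 CPM (SD over 6 bears), a log2 fold change of −2.0 ± 0.31 (SE) with adjusted p = 0.000277. Single bears lay at −3.37 to −1.34, with the largest fall in bear 1509 and the others between −1.93 and −1.34. Without the winter library of bear 1509 the log2 fold change was −1.88. NID1 was at 6.46, 6.90 and 7.27 in summer against 4.70, 5.37 and 5.98 in winter, a separation of 0.48. Its log2 fold change was −1.51 ± 0.21 (SE) with adjusted p = 0.000137, and its single bears, at −1.88 to −1.04, were among the most alike (SD 0.30). NID2, the paralog of NID1, was at 4.66, 5.70 and 6.03 in summer against 2.90, 3.24 and 4.41 in winter. The winter libraries again all lay below the summer libraries, with a log2 fold change of −2.05 ± 0.28 (SE) with adjusted p = 0.000105 and single bears at −2.85 to −1.55. These 3 genes were lower in 6 of 6 bears (exact permutation p = 0.0312 for each).

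**Figure D2:**
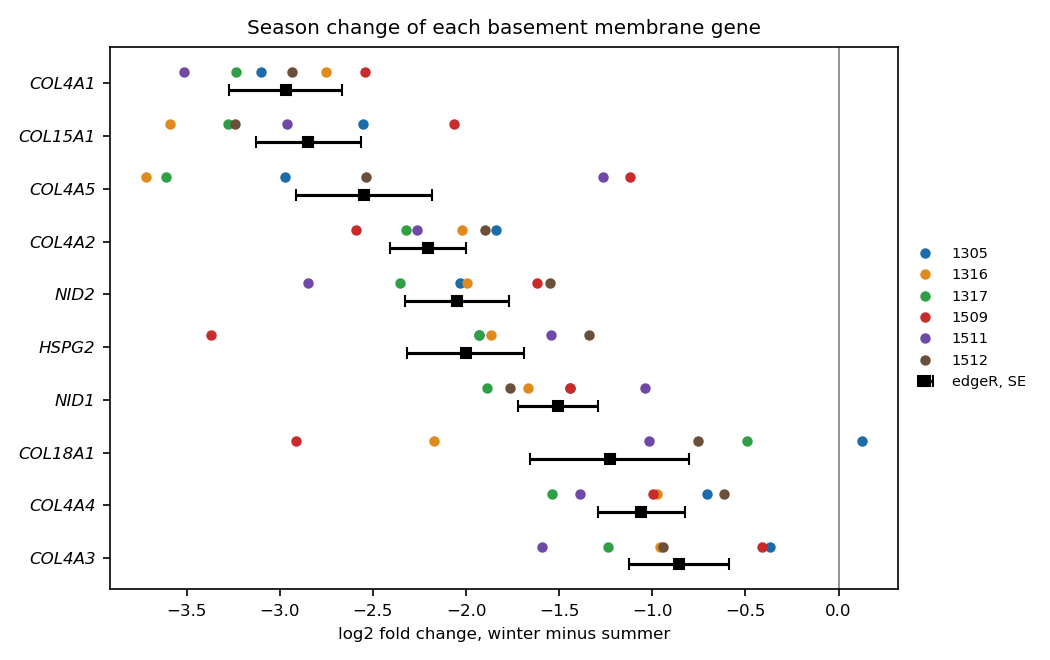
Winter minus summer log2 fold change (x axis) of each basement membrane gene, ordered by size. Squares with bars are edgeR's estimate and its standard error, and coloured points are the 6 single bears. Estimates run from −2.97 for COL4A1 to −0.86 for COL4A3, and the point of bear 1305 for COL18A1, at 0.13, is the only one above 0.

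To ask whether related members changed by the same amount, the winter minus summer changes of 6 pairs were compared within bears. COL4A1 and COL4A2, whose chains share a molecule and whose genes are known to lie beside each other, were the most regular pair in summer. The ratio of their reads was 2.44 to 3.04 in the 6 summer libraries. In winter it was 1.16 to 1.49 in 5 bears and 3.09 in bear 1509. COL4A1 thus changed by 0.86 more than COL4A2 on the log2 scale (difference −0.86 ± 0.49, SD, n = 6 bears), in 5 of 6 bears. The exact permutation p was 0.0625, and 0.188 after adjustment over the 6 pairs, so the difference was not called. Taken as unpaired libraries, it had an exact permutation p of 0.0152 (adjusted 0.0519). Without bear 1509 the difference was −1.04, and 5 bears cannot give a p below 0.0625.

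The ratio of COL15A1 to COL18A1 reads behaved in a similar way. It was 23.8 to 112 in summer, 8.17 to 20.5 in winter in 5 bears, and 63.5 in the winter library of bear 1509. The change of COL15A1 was larger in 5 of 6 bears, with a difference of −1.74 ± 1.37 (SD, n = 6 bears; exact permutation p = 0.0625, adjusted 0.188). Without bear 1509 this difference was −2.26. COL18A1 had few reads, so its counting error enters this ratio. NID2 changed more than NID1 in 5 of 6 bears, by a difference of 0.53 ± 0.69 (SD, n = 6 bears; exact permutation p = 0.0938, adjusted 0.188). The reads of NID1 per read of NID2 rose to 8.51 in the winter library of bear 1511, where the other winter libraries had 2.33 to 4.07, and without this bear the difference was 0.27. The remaining pairs were no closer to the threshold. The difference was 0.12 ± 0.35 between COL4A3 and COL4A4, 0.48 ± 1.18 between COL4A5 and COL4A1, and −0.46 ± 0.80 between HSPG2 and NID1 (SD, n = 6 bears; exact permutation p = 0.406, 0.344 and 0.156, adjusted p = 0.406, 0.406 and 0.234). The difference between HSPG2 and NID1 was −1.93 in bear 1509, the others lying at −0.51 to 0.42, and without bear 1509 it was −0.16. That between COL4A3 and COL4A4 was 0.025 without bear 1509, and that between COL4A5 and COL4A1 was 0.12 without bear 1511. These values do not show that the members of a pair changed alike.

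**Figure D3:**
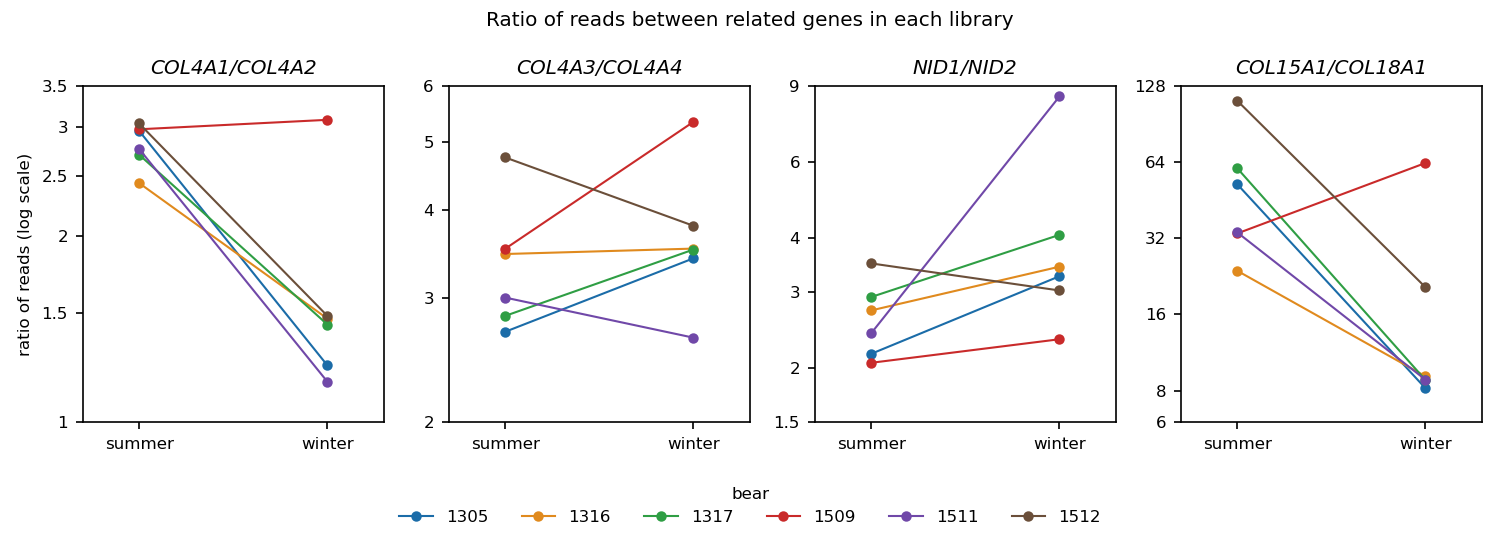
Ratio of the reads of related genes in each library, on log y axes with their own range, in summer and winter, with lines that join the libraries of a bear. For COL4A1/COL4A2 and for COL15A1/COL18A1 the ratio is lower in winter in 5 bears and higher in bear 1509, while NID1/NID2 is higher in winter in 5 bears.

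Other components of the basement membrane were taken as a list of 31 tested genes, which held the laminin chains, agrin, COL4A6, fibulins and others. In winter, 16 members of this list (51.6%) were lower and 2 higher, beside 19.9% lower and 19.6% higher over all genes. The list had a median log2 fold change of −0.67. The largest falls were those of COL4A6, a further type IV collagen chain with 3 to 87 reads per library, at −3.20 ± 0.35 (SE) with adjusted p = 2.32e-05, and of SPARC, a matricellular protein that binds collagen, at −3.06 ± 0.35 (SE) with adjusted p = 3.12e-05. The genes that rose were LAMA3, a laminin chain, at 0.71 ± 0.21 (SE) with adjusted p = 0.0175, and EGFLAM (pikachurin), a ligand of dystroglycan, at 0.40 ± 0.12 (SE) with adjusted p = 0.0169. With library totals in place of TMM neither rise was called (adjusted p = 0.0505 and 0.0987 in edgeR), nor without bear 1305 (0.0509 and 0.0675) or bear 1316 (0.0616 and 0.0686), and that of EGFLAM was not called without bear 1512 (0.0603) either. The 12 laminin chains alone, which are part of this list, gave 4 lower (33.3%) and 1 higher (LAMA3) with a median of −0.37. Their number higher was 0 with library totals or without bear 1305. It was 2 without the winter library of bear 1509, with the bear as a block, in DESeq2 or in limma voom. LAMA4 fell by 1.58 and LAMB1 fell by 1.38 on the log2 scale.

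A list of genes for the hydroxylation, folding, export and crosslinking of collagens gave 17 lower (70.8%) and 1 higher of 24 tested genes. Their median log2 fold change was −0.80. Of all genes tested, 19.9% were called lower and 19.6% higher, to be set beside the lists that follow as well. The listed genes serve type IV collagen but are not particular to it. LOXL2, a lysyl oxidase that crosslinks type IV collagen, stood at −3.00 ± 0.40 (SE) with adjusted p = 9.03e-05. P4HA3, a subunit of prolyl hydroxylase, was called lower but ranged from 0 to 526 reads, fell in 5 of 6 bears only and was not called in limma voom (adjusted p = 0.138). P4HB, which is both the other subunit of that enzyme and protein disulfide isomerase, was higher at 0.48 ± 0.11 (SE) with adjusted p = 0.00382, in 5 of 6 bears. A list of cell receptors of the basement membrane gave 8 lower and 3 higher of 25 with a median of −0.24. It also held dystrophin, utrophin and sarcoglycans, which are not themselves receptors. The receptor dystroglycan (DAG1) was not called, at −0.019 ± 0.13 (SE) with adjusted p = 0.921 in edgeR. SDC1, a syndecan, stood at −2.58 ± 0.53 (SE) with adjusted p = 0.00174, but with 2 to 93 reads per library and overlapping seasons. ITGA2, a collagen-binding integrin chain with 10 to 140 reads per library, was at −1.90 ± 0.39 (SE) with adjusted p = 0.00169. Among the genes of this list that rose, SGCA, a sarcoglycan of the muscle fibre membrane, was higher at 1.09 ± 0.35 (SE) with adjusted p = 0.0234. DDR1, a collagen receptor kinase, was higher at 0.50 ± 0.17 (SE) with adjusted p = 0.0317. The other was SGCD, also a sarcoglycan, at 0.43 ± 0.13 (SE) with adjusted p = 0.0189, which reached 0.0862 over the alternatives. SGCA lost its call without bear 1305, 1317 or 1511 (adjusted p = 0.0636, 0.0768 and 0.0718 in edgeR), and DDR1 without these bears or bear 1512 (0.137, 0.0553, 0.0833 and 0.0709) or with library totals (0.0607). In this list the number higher was 0 without bear 1305, 1 without bear 1512, 1 with library totals and 5 without the winter library of bear 1511. The number lower was 5 without bear 1317. Proteases and inhibitors gave 12 lower (52.2%) and 1 higher of 23, with a median of −0.66. BMP1, a procollagen proteinase, was at −2.38 ± 0.28 (SE) with adjusted p = 3.92e-05, MMP19, a metalloproteinase, at −1.97 ± 0.35 (SE) with adjusted p = 0.000676, and TIMP4, an inhibitor of metalloproteinases, was higher at 0.87 ± 0.23 (SE) with adjusted p = 0.00922.

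Fibrillar collagens build the interstitial matrix and not the basement membrane. Beside 19.9% of all genes called lower and 19.6% higher, they gave 8 lower (72.7%) and 0 higher of 11 tested genes in edgeR. None was higher in DESeq2 (0) or at an unadjusted p below 0.05 (0). Their median log2 fold change was −1.87, beside −2.03 for the 10 basement membrane genes. The range was wider, from −4.59 for COL1A1 and −4.17 for COL3A1 to 0.35, against −2.97 to −0.86. Whether the lists differ was not tested.

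**Figure D4:**
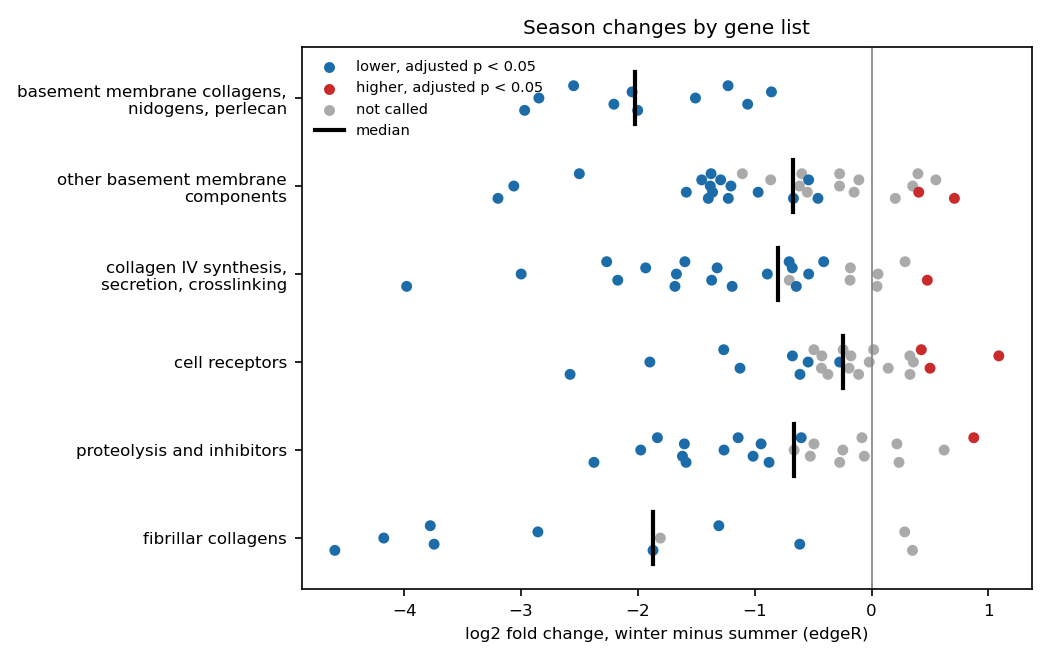
Winter minus summer log2 fold change in edgeR (x axis) of each tested gene, by list. Blue points are genes called lower, red points genes called higher, grey points genes not called, and black bars the medians. All 10 basement membrane collagens, nidogens and perlecan are blue, with a median of −2.03. The medians of the other lists run from −1.87 for the fibrillar collagens to −0.24 for the list labelled cell receptors.

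Some markers of the cells that make basement membrane also moved with season. Over all tested genes, 19.9% were called lower and 19.6% higher. The 10 members summed to 1128 to 2326 CPM in summer and 220 to 465 in winter. Endothelial markers summed to 779 to 1106 CPM in summer and 587 to 659 in winter, and 6 were lower and 2 higher of 14 tested genes, with a median log2 fold change of −0.42. The largest changes called among them were VWF and CDH5 (lower) and CLDN5 and ERG (higher), and CLDN5 lost its call when bear 1305, 1317, 1511 or 1512 was left out (adjusted p = 0.0506, 0.107, 0.0957 and 0.0502 in edgeR). Pericyte and smooth muscle markers summed to 721 to 887 CPM in summer and 485 to 584 in winter. In edgeR 6 were lower and 0 higher of 12 (0 higher in DESeq2 and at an unadjusted p below 0.05). Their median was −0.59, led by CNN1 and MCAM. CNN1 had 7 to 136 reads per library and its seasons overlapped. Fibroblast and fibroadipogenic markers summed to 1220 to 2183 CPM in summer and 359 to 1758 in winter. In edgeR 10 were lower and 0 higher of 12 (0 higher in DESeq2 and at an unadjusted p below 0.05), with a median of −1.41, led by LOX and FAP. LOX was lower in 5 of 6 bears only. The markers not called in edgeR were PDGFRA (−0.49, lower in 4 of 6 bears, adjusted p = 0.0772) and DCN (−0.75, lower in 5 of 6 bears, adjusted p = 0.0848). With the bear as a block, edgeR called DCN lower (adjusted p = 0.0104) but not PDGFRA (0.0778). All defining markers of these lists in the count table had reads. The part of these cells in the fall of the basement membrane genes was not tested.

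The sum of the fibroblast markers was lower in winter in all 6 bears. In 5 of them it was 359 to 833 CPM in winter, below each summer library (1220 to 2183 CPM), as the sum of the 10 basement membrane genes was. The seasons overlapped through bear 1511 alone. In that bear the fibroblast markers stood at 1980 CPM in summer and 1758 in winter. The endothelial markers stood there at 951 and 587 CPM, and the 10 basement membrane genes at 1917 and 346 CPM. These are the values of 1 bear, and what lay behind them was not tested. Among the fibroblast markers DCN had the highest mean level in summer and in winter (9.14 and 8.24 log2 CPM), so it weighs heavily in their sum. Of the other marker lists, muscle fibre genes gave 6 lower and 1 higher of 14 tested genes (median −0.22, with MYBPC2 and MB lowest and TTN higher) and macrophage genes 6 lower and 0 higher of 9 in edgeR (median −0.81, with C1QB and C1QC lowest, and 0 higher in DESeq2 and at an unadjusted p below 0.05). The satellite cell list gave 5 lower and 1 higher of 8 (median −0.65, with CALCR and CHRDL2 lowest, at 0 to 8 and 1 to 42 reads). The gene higher was MUSK, which the authors describe as a bone morphogenetic protein co-receptor in muscle cells. Its rise is not read as one of satellite cells. In this list MYF5 was at −2.04 ± 0.29 (SE) with adjusted p = 0.000122 in edgeR. PAX7 was at −0.81 ± 0.27 (SE) with adjusted p = 0.0298 in edgeR, which reached 0.0969 over the alternatives. Adipocyte genes gave 3 lower and 1 higher of 8 (median −1.06, with PCK1 and LIPE lowest among those called and LEP higher). Schwann cell and perineurial genes gave 1 lower (S100B) and 0 higher of 10 (median −0.19; 0 higher in DESeq2 and at an unadjusted p below 0.05). Several of these counts rested on single bears. With 1 bear left out, 3 macrophage genes were lower without bear 1305 or 1317, 2 satellite cell genes without bear 1316, 1509 or 1512 and 3 without bear 1305, 1317 or 1511, 0 Schwann cell genes without bear 1305 or 1316 and 2 without bear 1509, and 0 adipocyte genes were higher without bear 1317, 1511 or 1512. With the bear as a block, 2 Schwann cell genes were lower, and 2 adipocyte genes were lower and 0 higher. CALCR, PCK1 and LEP had 0 reads in at least 1 library, and PCK1 was lower in 3 of 6 bears only and lost its call with the bear as a block (adjusted p = 0.117 in edgeR and 0.351 in DESeq2) and in limma voom (0.251).

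**Figure D5:**
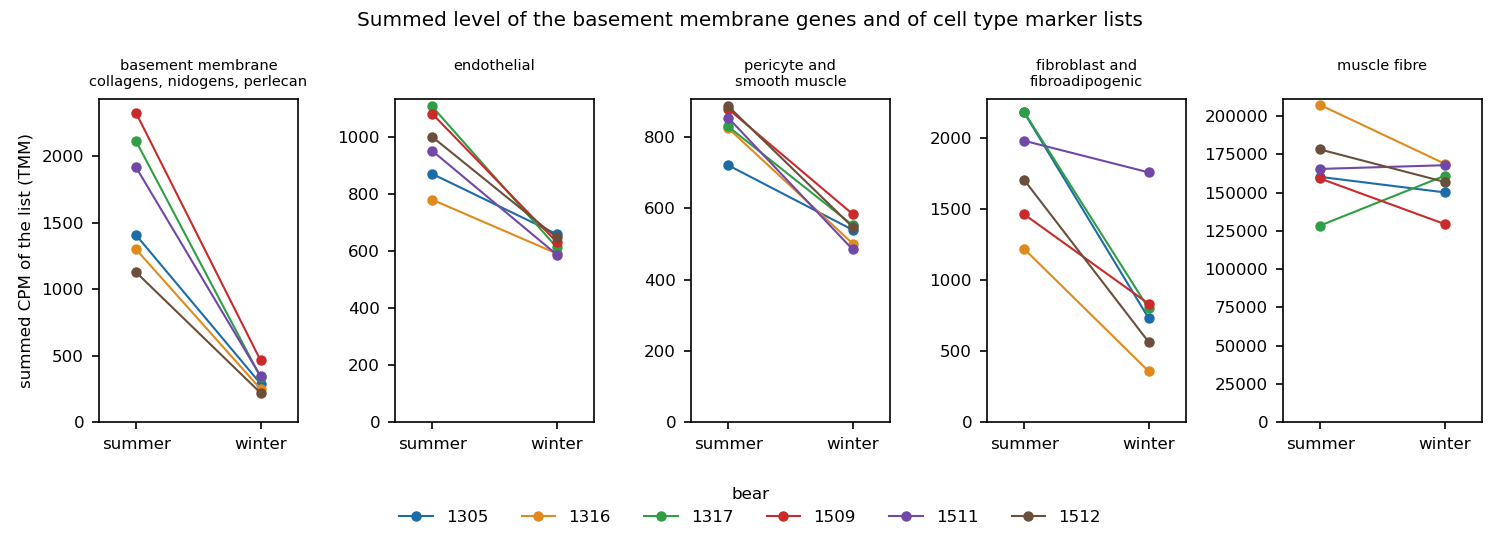
Summed level, in TMM-scaled CPM on linear y axes that start at 0, of the 10 basement membrane genes and of 4 cell type marker lists in summer and winter, with lines that join the libraries of a bear. The basement membrane genes lie at 1128 to 2326 CPM in summer and at 220 to 465 in winter, and muscle fibre markers overlap between the seasons.

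The genes whose pattern was most like that of COL4A1 and COL4A2 were sought among the 13480 other tested genes that carry a gene symbol and not just a LOC number. The measure was Pearson's r of log2 CPM with the mean of both chains over the 12 libraries, which share their season difference, so that this difference is part of r. The 5 highest were NRIP2 (r = 0.988), RHNO1 (0.985), SLC15A4 (0.982), the laminin chain LAMB1 (0.980) and VASH1 (0.978), and 85 genes had an r of at least 0.95. After the season means were taken off, r with these 5 genes was 0.899, 0.876, 0.782, 0.808 and 0.777. Among the members, r over the 12 libraries was 0.978 for COL15A1, 0.972 for NID2, 0.95 for NID1 and 0.902 for HSPG2. It was lower for COL4A5 (0.873), COL4A4 (0.814), COL4A3 (0.686) and COL18A1 (0.640). With the season means taken off it was 0.863 for NID2, 0.749 for COL15A1 and 0.715 for NID1, but 0.476 for HSPG2. For COL4A4, COL18A1, COL4A3 and COL4A5 it was then 0.343, 0.301, 0.261 and 0.107.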

How the data were processed

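Stranded mRNA libraries were sequenced by the authors as single reads of 50 bases and aligned with TopHat to the assembly ASM358476v1. Alignments with more than 3 mismatches were discarded, and reads were counted per gene and strand with featureCounts. The authors deposited these counts as they were, neither normalized nor filtered (0 lines without a gene name, 0 columns of unknown sample). The lane of each library is not given in the sources used here, and a lane effect was not tested. Tool versions per the labels were 2.1.1 for TopHat and 1.6.2 for featureCounts.

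Genes with fewer than 30 reads in all were dropped, the rest were scaled by TMM and tested with glmQLFit and glmQLFTest in edgeR 4.0.16 (R 4.3.3), with season as the only term. The standard error is the log2 fold change divided by the square root of F. Alternatives comprised the bear added to edgeR as a replicate block, DESeq2 1.42.0 with or without this block, limma 3.58.1 with voom, RLE normalization, library totals, no filter, filterByExpr, stricter limits, a prior count of 0.5, and each bear left out. The members, lists and tests were chosen with earlier results of these data known. By rule, the named genes were the members, the 2 largest called falls and rises of each list, and the 5 genes most like COL4A1 and COL4A2. MYF5, PAX7, DAG1, SGCD, PDGFRA and DCN were named besides these, after the data were seen. The fits were tested on simulated data.

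The libraries of a bear were paired because the study sampled the same animals in both seasons. After season means were taken off, the libraries of a bear correlated at 0.0903 to 0.344, and those of different bears at a median of −0.0634 and at most 0.142, so that the values overlapped. The lowest chi-square per gene between libraries of a season was 35.8, where counting noise gives about 1. No brown bear sequences or exon lengths were used here.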

Additional observations from a re-analysis of the deposited data

Results flagged for a closer look

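The levels of the 10 members and the log2 ratios of the 6 pairs were examined in each season for a library far from the other 5, which made 32 groups of 6 libraries. A library counted as far when its gap to the nearest other, as a part of the whole range, exceeded the critical value of Dixon's test at the 95% level. Only 1 such library was found, where chance flags about 1 in 20 groups, or 1.6 of 32. In winter the log2 ratio of COL4A1 to COL4A2 was 1.62 in bear 1509, the others lying at 0.22 to 0.57, a gap of 0.749 of the range. This is the library that lay apart on the second principal component, and the cause was not tested.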

How the results depend on the processing

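Under 16 alternatives for each of the 10 members, 153 of 160 log2 fold changes kept their direction and their side of the threshold, 7 lost their call, and 0 changed sign. The 7 were those of COL4A3 (3) and COL18A1 (4) given above, each with a bear or a winter library left out. The number of members lower was 10 when edgeR took the bear as a replicate block (COL4A1 −3.01, COL4A3 −0.91), which changed no call of a member, and 8 to 10 with a bear left out. The number higher was 0 in each. Leaving out the winter library of bear 1509 (9 lower) or of bear 1511 (10 lower) was chosen after seeing the data, as was the ratio of raw reads for the pairs. Without that of bear 1509, 14 other basement membrane components were lower and 3 higher. The number lower was then 10 for receptors, 10 for proteases and inhibitors, 7 for fibrillar collagens and 3 for laminin chains. It was 5 for pericyte, 5 for macrophage, 2 for adipocyte and 2 for Schwann cell markers. Of the satellite cell list, 4 were lower and 2 higher. With an adjusted p below 0.01 and the fold limits, 2077 of all tested genes were lower and 2077 higher, where 3445 and 3386 were called at 0.05. With library totals the median log2 fold change of all genes moved from −0.0021 to −0.0813, and 41.7% of the calls were higher instead of 49.6%. The differences between paired members kept their sign with each bear left out, from −1.04 to −0.78 for COL4A1 and COL4A2, −2.26 to −1.54 for COL15A1 and COL18A1, 0.025 to 0.208 for COL4A3 and COL4A4, 0.12 to 0.76 for COL4A5 and COL4A1, 0.27 to 0.68 for NID1 and NID2, and −0.63 to −0.16 for HSPG2 and NID1. With a prior count of 0.5, raw reads or unpaired libraries (no replicate block) 0 of the 6 were called. COL18A1, with 25 to 277 reads, and COL4A5, with 10 to 39 in winter, are the members most limited by depth.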
